A study of Mus musculus with 6 samples.

Results

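The antigen presentation genes described here are *B2m*, *H2-K1*, *H2-D1*, *Tap1*, *Cd74*, *H2-Aa*, *H2-Ab1* and *H2-Eb1*, chosen by symbol, and all 8 were found among the 14865 genes listed for the cochlear duct. RNA was sequenced in 6 libraries from mice at postnatal day 8, 3 of Gfi1+/+ mice and 3 of Gfi1cre/+ mice, which carry Cre recombinase in place of 1 copy of *Gfi1*. A replicate was 1 animal in Gfi1+/+, with both of its 2 cochleae, but a pool of 3 animals and 6 cochleae in Gfi1cre/+, so that the spread within Gfi1+/+ is between animals and that within Gfi1cre/+ is between pools. The strain was C57BL/6, and the knock-in line, which was made from mixed 129S6 and C57BL/6J mice, was kept on C57BL/6J. Cre in this line follows *Gfi1*, which is active in hair cells and in blood-derived immune cells. The labels name no treatment of either genotype. In bulk RNA of this kind, fewer cells of a type and less RNA per cell cannot be told apart.

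Major histocompatibility complex (MHC) class I molecules are made by nearly all nucleated cells and show peptides from inside the cell to CD8 T cells and natural killer cells. Each is a heavy chain, here H2-K1 or H2-D1, paired with the light chain beta-2-microglobulin (B2m), and is loaded in the endoplasmic reticulum with peptides that the TAP transporter, made of Tap1 and Tap2, brings in from the cytosol. Class II molecules are made mainly by dendritic cells, B cells and macrophages and show peptides from outside the cell to CD4 T cells. Each pairs an alpha chain such as H2-Aa with a beta chain such as H2-Ab1, and the invariant chain Cd74 holds the peptide groove until the complex reaches an endosome. *H2-Eb1* encodes the beta chain of the second class II molecule, whose alpha chain is not made in C57BL/6 mice. Both classes are induced by interferon gamma, class I genes through IRF1 and NLRC5 and class II genes through CIITA.

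The promoters of the genes on chromosome 17 are shown first because the classes share a sequence module, in which RFX proteins bind an X box, CREB family proteins an X2 box and NF-Y a Y box, whereas classical class I promoters also hold an NF-kappaB site and an interferon response element. The sequences are from RefSeq on GRCm38.p6 and run from 250 bases before the annotated start site to 30 bases from it on. They were used for 6 of the 8 genes, without *H2-Ab1* and *Cd74*. Capitals mark matches on either strand to GGGATTCCC (NF-kappaB type), TTTCACTTC (interferon response type), TGACG (X2 box core) and CTGATTGG (Y box). The windows lie at chr17:34000318-34000597 on the minus strand for *H2-K1*, chr17:35262844-35263123 on the plus strand for *H2-D1*, chr17:34187306-34187585 on the plus strand for *Tap1*, chr17:34287794-34288073 on the minus strand for *H2-Aa* and chr17:34305617-34305896 on the plus strand for *H2-Eb1*.
H2-K1: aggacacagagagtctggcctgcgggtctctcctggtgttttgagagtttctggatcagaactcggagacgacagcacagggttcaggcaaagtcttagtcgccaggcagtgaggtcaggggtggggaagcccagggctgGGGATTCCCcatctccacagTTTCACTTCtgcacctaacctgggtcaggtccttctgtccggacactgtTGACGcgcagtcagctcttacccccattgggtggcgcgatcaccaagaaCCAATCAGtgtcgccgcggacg
H2-D1: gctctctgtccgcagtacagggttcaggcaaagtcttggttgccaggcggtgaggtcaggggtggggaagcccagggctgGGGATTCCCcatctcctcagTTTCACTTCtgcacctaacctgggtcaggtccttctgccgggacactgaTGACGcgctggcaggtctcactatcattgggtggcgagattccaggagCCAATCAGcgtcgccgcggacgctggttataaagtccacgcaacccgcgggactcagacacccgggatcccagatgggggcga
Tap1: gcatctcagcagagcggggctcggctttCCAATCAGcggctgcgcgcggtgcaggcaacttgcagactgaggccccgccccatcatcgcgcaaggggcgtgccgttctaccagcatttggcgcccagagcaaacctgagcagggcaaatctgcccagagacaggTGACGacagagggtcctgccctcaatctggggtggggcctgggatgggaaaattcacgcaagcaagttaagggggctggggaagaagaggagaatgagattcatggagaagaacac
H2-Aa: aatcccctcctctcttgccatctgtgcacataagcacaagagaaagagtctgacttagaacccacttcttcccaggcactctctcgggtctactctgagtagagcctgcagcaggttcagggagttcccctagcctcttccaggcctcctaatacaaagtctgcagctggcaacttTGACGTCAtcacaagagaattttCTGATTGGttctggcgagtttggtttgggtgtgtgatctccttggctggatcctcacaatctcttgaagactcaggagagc
H2-Eb1: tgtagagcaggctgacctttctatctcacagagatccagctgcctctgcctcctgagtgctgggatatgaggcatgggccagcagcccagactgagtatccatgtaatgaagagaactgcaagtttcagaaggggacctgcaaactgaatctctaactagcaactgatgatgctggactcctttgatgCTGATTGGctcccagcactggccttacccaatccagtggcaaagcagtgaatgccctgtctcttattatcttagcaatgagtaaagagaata

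The promoters of *H2-K1* and *H2-D1* held all 4 motifs in the same order. The Y box match ended 45 bases before the annotated start site in *H2-D1*, but past that site in *H2-K1* (-16 on the same count). All 4 motifs were found in 4 entries or 0.0122% of the 32851 promoters of this length, and the only other gene among these was *H2-Q7*, a class I heavy chain gene described below. The search took exact strings only, in the form that *H2-K1* and *H2-D1* hold, and variants of the elements were not counted. The share is thus no measure of how rare the elements are. Over the 219 positions where the 2 windows could be aligned without a gap, 195 bases or 89% were identical. GGGATTCCC occurred in 0.329% of all promoters, TTTCACTTC in 0.457%, TGACG in 19.9% and CTGATTGG in 4.02%. *Tap1* held an X2 box core and a Y box match, a pair found in 0.959% of promoters, and so did *H2-Aa*, but the layout differed. In *H2-Aa* TGACG matched on both strands in overlapping positions, ending 69 and 66 bases before the start site. The Y box match followed and ended 43 bases before it. In *Tap1* the order was reversed, with the Y box match ending 214 bases and TGACG 81 bases before the start site. *H2-Eb1* held the Y box match alone. The window of *B2m*, at chr2:122147437-122147716 on the plus strand, held 1 TGACG and no exact match to the other strings. This does not show that *B2m* lacks these elements, since variants were not searched for. *Tap1* shares its promoter region with *Psmb9*, an immunoproteasome subunit gene that runs the other way and whose window, chr17:34187301-34187580 on the minus strand, covered nearly the same bases. These matches describe letters only and say nothing of which factors were bound.

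The libraries held 13603908 to 16136022 reads counted on the listed genes in Gfi1+/+ and 17939607 to 19359753 in Gfi1cre/+. *Gfi1*, the targeted gene, had 147, 160 and 152 normalized reads in Gfi1+/+ and 136, 130 and 139 in Gfi1cre/+, a count that covers exons both replaced and kept in the knock-in allele (log2 difference -0.18, limma, unadjusted p = 0.0945, adjusted p = 0.999). All 10 cochlear duct markers were listed, among them the hair cell gene *Myo7a* (680 ± 84.4 and 659 ± 27.3) and the epithelial gene *Epcam* (5455 ± 154 and 5248 ± 67.6). Of the 10, 3 had higher and 7 lower fitted values in Gfi1cre/+. The genotypes did not overlap for *Epcam*, lower as were 4.07% of all genes, and *Kcnq1*, higher as were 3.45%. *Tecta* had 5506, 9628 and 3299 in Gfi1+/+ and 4656, 7597 and 5031 in Gfi1cre/+, a spread within genotypes at percentile 98.1 of all genes tested. *Tectb* was also lowest in Gfi1+/+ replicate 3. On the first principal component, with 54.3% of the variance, Gfi1+/+ replicate 1 stood apart at -44.0 while the other libraries lay between -0.304 and 16.2, and the plot of genotype differences gives the values of the 8 genes without it. The 4 genes that passed an adjusted p under 0.05 lie on the Y chromosome, so the sex of the pups and the genotype cannot be told apart for any gene here.

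In level, the genes fell into a high group and a low group. Values are normalized reads, that is counted reads divided by 1 size factor per library, and levels of different genes were compared per kilobase (kb) of annotated exon. *B2m* stood highest with 4994 normalized reads per kb (SD 272, n = 6 libraries), followed by *H2-D1* with 909 (SD 196) and *H2-K1* with 760 (SD 141). *Cd74* (56.4, SD 23.6) and *Tap1* (54.8, SD 18.4) came next, and the class II chains *H2-Eb1* (28.5, SD 6.90), *H2-Ab1* (16.5, SD 4.92) and *H2-Aa* (9.25, SD 2.44) were lowest. *B2m* lay above *H2-D1* by a factor of 5.49 and *H2-K1* above *Cd74* by a factor of 13.5, in both cases with no overlap between libraries. *Cd74* and *Tap1* did not differ beyond their spread, since *Cd74* was the higher of the pair in 2 of 6 libraries. Per kb of annotated exon, *H2-D1* exceeded *H2-K1* in 6 of 6 libraries although their ranges overlapped, and the same held for *Tap1* over *H2-Eb1*, *H2-Eb1* over *H2-Ab1* and *H2-Ab1* over *H2-Aa*. The orders of *H2-D1* with *H2-K1* and of *H2-Eb1* with *H2-Ab1* rest on this choice of length. *H2-K1* has 2938 bases of annotated exon against 2579 in *H2-D1*, but a longest transcript of 1874 against 2102. For *H2-Ab1* and *H2-Eb1* these are 2568 against 1944 and 1212 against 1669. Without correction for length, *B2m* ranked 542 from the top of the 14865 listed genes, *H2-D1* 1389 and *H2-K1* 1488, whereas *Tap1* ranked 9137, *Cd74* 12236, *H2-Eb1* 13327, *H2-Ab1* 13821 and *H2-Aa* 14160.

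**Figure D1:**
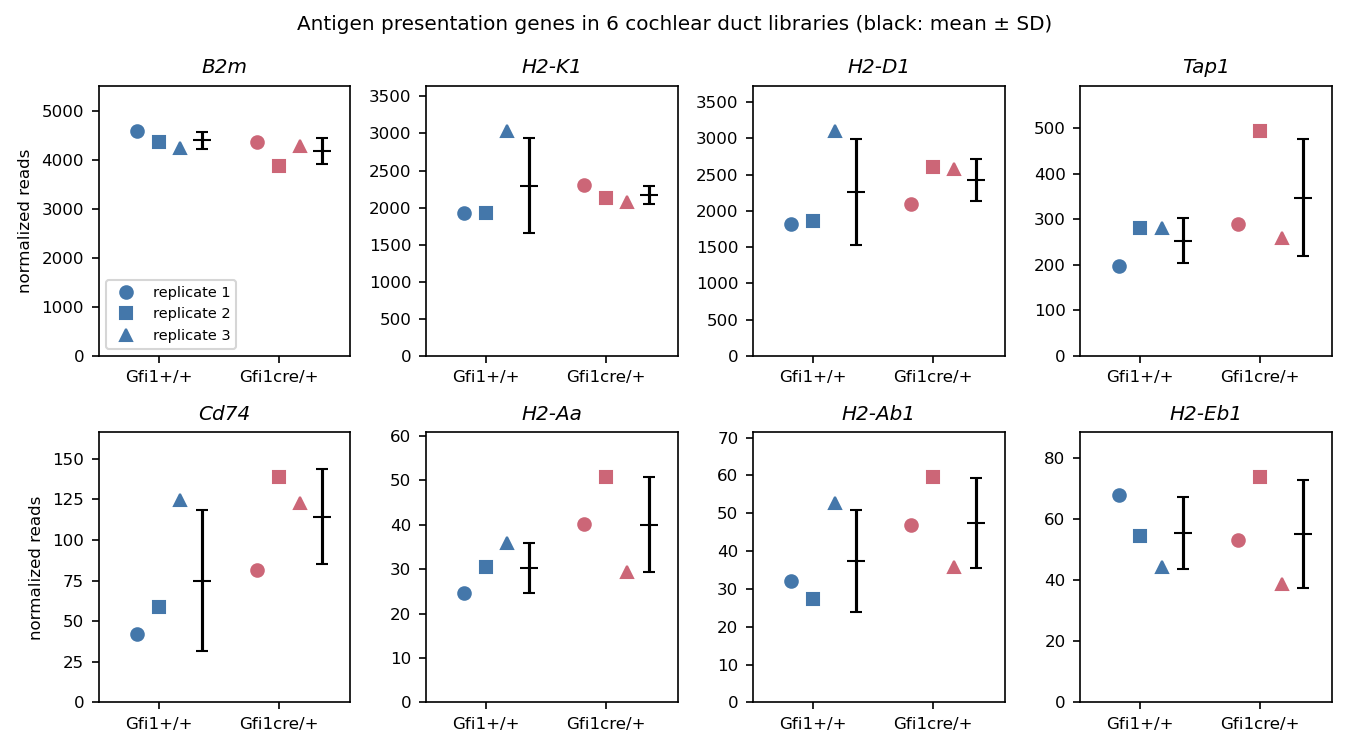
Normalized reads (vertical axis, from 0 in each panel) of the 8 antigen presentation genes in the 3 Gfi1+/+ libraries (blue) and the 3 Gfi1cre/+ libraries (red), with marker shape for the replicate number and the mean ± SD of each genotype in black. The genotypes overlap in all 8 panels, Gfi1+/+ replicate 3 is the highest library for *H2-K1* and *H2-D1*, and Gfi1cre/+ replicate 2 is the highest for *Tap1*, *Cd74*, *H2-Aa*, *H2-Ab1* and *H2-Eb1*.

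None of the 8 genes passed the test for a difference between the genotypes. By limma on log2(normalized reads + 1), with Benjamini-Hochberg adjustment over the 14455 genes that reached 40 normalized reads in any library, the adjusted p was 0.999 for each of the 8, all of which reached that minimum. *H2-Aa* reached it only in Gfi1cre/+ replicates 1 and 2, at 40.04 and 50.6, so its place in the test rests on the genotype where it was higher. Of all genes tested, 0.0277% passed an adjusted p under 0.05. An unadjusted p under 0.05 was reached by 0 of the 8 and by 3.04% of all genes, and libraries of the genotypes did not overlap in 0 of the 8 and in 7.52% of all genes. The fitted difference was above 0 in 5 of the 8 genes and in 49.9% of all genes, with a median log2 difference of 0.25 over the 8 against -0.000116 over all genes. With 1 library left out this median ran from 0.097 without Gfi1+/+ replicate 2 to 0.44 without Gfi1+/+ replicate 3, and it was 0.18 without Gfi1+/+ replicate 1 and 0.11 without Gfi1cre/+ replicate 2. A minimum mean of 40 over the libraries left out *H2-Aa*. The fitted difference was then above 0 in 4 of 7 genes, with a median of 0.14. The exact permutation test over 3 against 3 libraries cannot go below p = 0.1.

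*B2m* (ENSMUSG00000060802, chr2:122147686-122153083, plus strand), the light chain of every classical class I molecule, was found at 4595, 4379 and 4250 normalized reads in the Gfi1+/+ libraries, given here and below in the order of their replicate numbers, and at 4375, 3885 and 4285 in the Gfi1cre/+ libraries. The libraries lay close together, with Gfi1cre/+ replicate 2 as the lowest of the 6. The means were 4408 ± 175 (SD, n = 3) and 4181 ± 261, and the log2 difference, Gfi1cre/+ minus Gfi1+/+, was -0.077 with a 95% interval of -0.22 to 0.066 (limma, SE 0.063, unadjusted p = 0.253).

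*H2-K1* (ENSMUSG00000061232, chr17:33996017-34000347, minus strand) encodes the K heavy chain. It had 1929, 1930 and 3034 normalized reads in the Gfi1+/+ libraries and 2300, 2133 and 2079 in the Gfi1cre/+ libraries. Gfi1+/+ replicate 3 stood above the 5 others, the next of which it exceeded by a factor of 1.32, and the 3 Gfi1cre/+ libraries lay between it and the other Gfi1+/+ libraries. The means were 2298 ± 638 and 2171 ± 116, with a log2 difference of -0.049 (95% interval -0.40 to 0.30, limma, unadjusted p = 0.759). Without Gfi1+/+ replicate 3 the difference turned to 0.17 (unadjusted p = 0.0134, adjusted p = 0.187, limma). In that fit 16.2% of all genes tested had an unadjusted p under 0.05, so that leaving out this library moved a large part of the whole table with it.

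*H2-D1* (ENSMUSG00000073411, chr17:35262730-35267499, plus strand), the D heavy chain gene, had 1823, 1856 and 3103 normalized reads in Gfi1+/+ and 2094, 2607 and 2582 in Gfi1cre/+. The same Gfi1+/+ library was highest, and the other Gfi1+/+ libraries were the lowest of the 6. The means were 2261 ± 730 and 2428 ± 289, and the log2 difference was 0.14 (95% interval -0.28 to 0.56, limma, unadjusted p = 0.469). It was 0.39 without Gfi1+/+ replicate 3 (unadjusted p = 0.00149, adjusted p = 0.106, limma) and between 0.0093 and 0.24 without any 1 of the other 5. The exact 95% Poisson intervals of Gfi1+/+ replicate 3, 2924 to 3147 for *H2-K1* and 2992 to 3217 for *H2-D1*, lay wholly above those of every other library. These intervals cover counting error only, as read pairs carry no molecular identifiers. Per kb of annotated exon, *H2-D1* was between 1.04 and 1.17 times *H2-K1* in the Gfi1+/+ libraries and Gfi1cre/+ replicate 1, and 1.39 and 1.42 times in Gfi1cre/+ replicates 2 and 3. Reads of *H2-D1* may in small part be shared with a related gene, since 1.79% of the 150-base windows of its longest transcript occur exactly in a transcript of another gene, whereas the other 7 genes had none.

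*Tap1* (ENSMUSG00000037321, chr17:34187553-34197225, plus strand), a subunit of the peptide transporter, had 197, 281 and 282 normalized reads in Gfi1+/+ and 290, 494 and 259 in Gfi1cre/+. Gfi1cre/+ replicate 2 stood apart, at 1.70 times the next library, and the other 5 libraries of both genotypes overlapped. Its exact 95% Poisson interval, 453 to 536, was clear of all the others, the highest of which ended at 323. The means were 253 ± 48.3 and 347 ± 128, with a log2 difference of 0.41 (95% interval -0.11 to 0.94, limma, unadjusted p = 0.109) that came to 0.13 without Gfi1cre/+ replicate 2 and to 0.24 without Gfi1+/+ replicate 1. Without Gfi1cre/+ replicate 3 it was 0.60 (limma, unadjusted p = 0.0389, adjusted p = 0.999), in a fit where 1.72% of all genes had an unadjusted p under 0.05. The DESeq2 test on recovered reads gave *Tap1* an unadjusted p of 0.0416, where 2.59% of all genes had one under 0.05. The start of the *Tap1* gene model overlaps *Psmb9* on the opposite strand over 212 bases or 3.87% of its annotated exon length, and whether the counting used strand is not given in the sources used here, so a small part of the 2 counts cannot be told apart.

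*Cd74* (ENSMUSG00000024610, chromosome 18), the invariant chain, had 42.0, 58.6 and 124 normalized reads in Gfi1+/+ and 81.8, 138 and 123 in Gfi1cre/+. The lowest libraries were Gfi1+/+ replicates 1 and 2, and Gfi1+/+ replicate 3 lay among the Gfi1cre/+ libraries. It had the largest fitted difference of the 8 genes, 0.72 on the log2 scale, but the 95% interval of -0.10 to 1.53 took in 0 (limma, SE 0.361, unadjusted p = 0.0783, exact permutation p = 0.3). This difference depended on single libraries, since it fell to 0.38 when Gfi1+/+ replicate 1 was left out and came to 1.15 when Gfi1+/+ replicate 3 was (unadjusted p = 0.00101, adjusted p = 0.0944, limma). With Gfi1cre/+ replicate 1 left out it was 0.94 (limma, unadjusted p = 0.0475, adjusted p = 0.999), in a fit where 2.17% of all genes had an unadjusted p under 0.05.

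The chains of class II molecules were counted on few reads. *H2-Aa* (ENSMUSG00000036594, chr17:34282744-34287823, minus strand), the alpha chain, had 24.7, 30.4 and 35.9 normalized reads in Gfi1+/+ and 40.04, 50.6 and 29.3 in Gfi1cre/+, from between 20 and 57 counted reads per library. *H2-Ab1* (ENSMUSG00000073421, chr17:34257689-34269419, plus strand), its beta chain partner, had 32.1, 27.2 and 52.7 in Gfi1+/+ and 47.0, 59.5 and 35.9 in Gfi1cre/+. For this pair Gfi1cre/+ replicate 2 was the highest library and Gfi1cre/+ replicate 3 lay within the range of Gfi1+/+. The log2 difference was 0.37 for *H2-Aa* (95% interval -0.27 to 1.01) and 0.36 for *H2-Ab1* (95% interval -0.32 to 1.05). With 1 library left out, that of *H2-Aa* ran from 0.19 without Gfi1cre/+ replicate 2, and 0.23 without Gfi1+/+ replicate 1, to 0.57 without Gfi1cre/+ replicate 3. That of *H2-Ab1* was 0.17 without Gfi1+/+ replicate 2, 0.19 without Gfi1cre/+ replicate 2, 0.55 without Gfi1cre/+ replicate 3 and 0.64 without Gfi1+/+ replicate 3 (limma, unadjusted p = 0.0505, adjusted p = 0.310). *H2-Eb1* (ENSMUSG00000060586, chr17:34305867-34316674, plus strand) had 67.9, 54.4 and 44.3 normalized reads in Gfi1+/+ and 53.1, 73.7 and 38.7 in Gfi1cre/+. Its genotype means were nearly equal, 55.5 ± 11.8 and 55.2 ± 17.6, with a log2 difference of -0.037 (95% interval -0.64 to 0.56). Gfi1+/+ replicate 3, which was second highest for *H2-Ab1*, was second lowest for *H2-Eb1*. All 3 chains were well above the 3 reads that a count of 0 allows, which is 2.61 to 3.70 normalized reads, but a genotype difference within the intervals above was not detectable at this depth and spread.

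**Figure D2:**
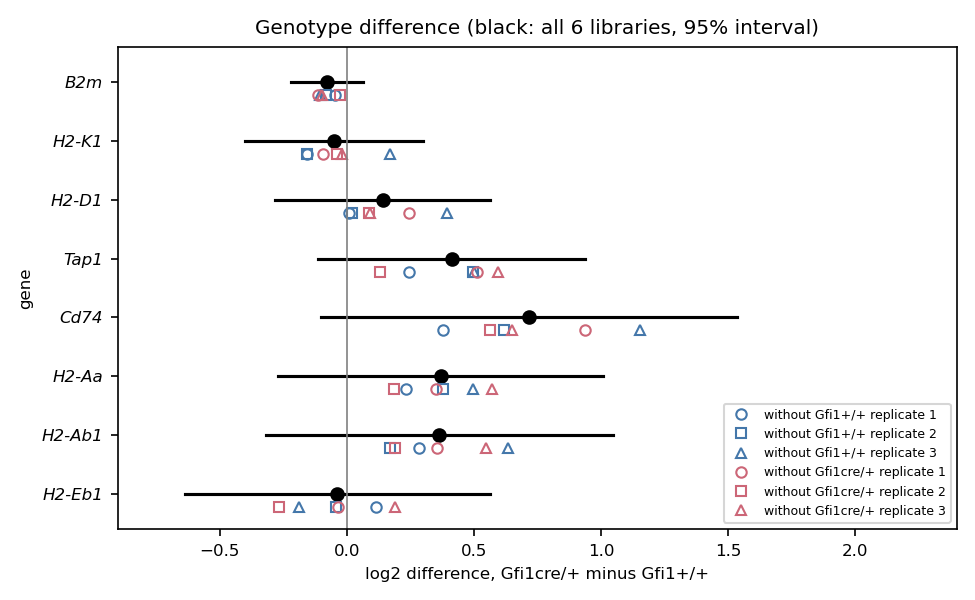
Log2 difference of normalized reads, Gfi1cre/+ minus Gfi1+/+ (horizontal axis), for each of the 8 genes, with the value from all 6 libraries as a filled black point, its 95% interval as a line, and the values with 1 library left out as open markers coloured by genotype and shaped by replicate. All 8 intervals include 0, and the point without Gfi1+/+ replicate 3 lies farthest to the right for *H2-K1*, *H2-D1*, *Cd74* and *H2-Ab1*.

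The 8 genes varied between libraries of a genotype more than most genes did, with *B2m* as the exception. The residual SD of log2(normalized reads + 1) after removing the genotype means was 0.076 for *B2m*, at percentile 28.6 of all genes tested. It was 0.27 for *H2-K1* and 0.33 for *H2-D1*, at percentiles 90.3 and 93.9, against 0.031 from counting error alone for both. *Tap1* had a residual SD of 0.41 where counting gives 0.088, and *Cd74* one of 0.63 where counting gives 0.17, at percentiles 96.0 and 98.2. For the class II chains counting error was larger. The residual SD was 0.33 for *H2-Aa*, 0.43 for *H2-Ab1* and 0.39 for *H2-Eb1*, where counting gives 0.25, 0.23 and 0.20. SDs do not add, so these are not shares of the spread, but the percentiles of 93.8, 96.3 and 95.6 rest in part on low counts. The median residual SD of all genes tested was 0.11. The spread of *H2-K1* was in Gfi1+/+, with an SD of 0.38 between those libraries and of 0.076 between the Gfi1cre/+ pools, whereas for *Tap1* the order was the other way, 0.29 and 0.50.

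The highest library differed from gene to gene. Gfi1+/+ replicate 3 was highest for both heavy chains, and over all genes tested it was highest in 23.1%. Gfi1cre/+ replicate 2 was highest for *Tap1* and all 4 class II genes, that is for 5 of the 8, and over all genes in 12.9%. For the 4 class II genes its exact 95% Poisson interval overlapped that of the next library, as for *Cd74* with 118 to 162 against 103 to 149 in Gfi1+/+ replicate 3, so that counting error does not separate their top libraries. *B2m* was highest in Gfi1+/+ replicate 1, as were 24.9% of all genes, and lowest in Gfi1cre/+ replicate 2. Across the 6 libraries, which share their depth and genotype structure, the Pearson r of log2(normalized reads + 1) was 0.78 between *H2-K1* and *H2-D1*, 0.91 between *H2-D1* and *Cd74*, 0.93 between *Tap1* and *H2-Aa*, 0.85 between *H2-Aa* and *H2-Ab1*, and -0.96 between *B2m* and *Tap1*. *H2-Eb1* followed *H2-Aa* and *H2-Ab1* less closely, with r of 0.28 and 0.13. These r values are descriptions over 6 points and rest on few libraries.

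Class I exceeded class II by a wide margin in every library. Summed per kb, the class I genes *B2m*, *H2-K1* and *H2-D1* came to 6707, 6468 and 7178 normalized reads in Gfi1+/+ and 6682, 6254 and 6691 in Gfi1cre/+. The class II genes *Cd74*, *H2-Aa*, *H2-Ab1* and *H2-Eb1* came to 78.9, 81.5 and 127 in Gfi1+/+ and 105, 157 and 115 in Gfi1cre/+. The class I sum was the steadier of the pair, and its ratio to class II was 85.0, 79.3 and 56.6 in Gfi1+/+ and 63.7, 39.9 and 58.4 in Gfi1cre/+. The mean ratio was 73.6 ± 15.1 (SD, n = 3) and 54.0 ± 12.5, or 63.8 ± 16.4 over the 6 libraries, and the genotypes overlapped. *B2m* made up most of the class I sum, at 2.21 to 3.92 times the 2 heavy chains together, with the lowest ratio in Gfi1+/+ replicate 3. With *B2m* and *Cd74* set aside, the heavy chains exceeded the class II chains by factors of 25.3, 29.5 and 42.4 in Gfi1+/+ and 28.4, 23.4 and 41.1 in Gfi1cre/+, in which the order of the libraries was no longer the same. *Cd74* per kb relative to the class II chains ran from 0.464 in Gfi1+/+ replicate 1 to 1.76 in Gfi1cre/+ replicate 3. The kb values divide by all annotated exon, which for some genes includes long alternative exons, and with the longest transcript as the length the mean class ratio was 52.8.

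**Figure D3:**
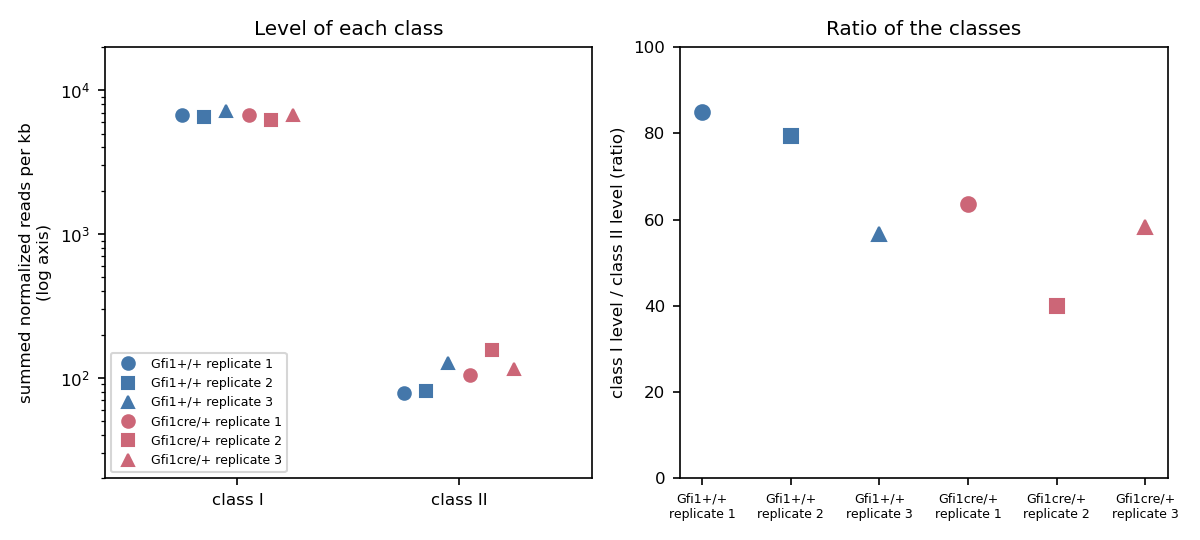
Left, normalized reads per kb summed over the class I genes *B2m*, *H2-K1* and *H2-D1* and over the class II genes *Cd74*, *H2-Aa*, *H2-Ab1* and *H2-Eb1* (vertical log axis) in each of the 6 libraries. Right, the ratio of the class I sum to the class II sum in each library (vertical axis from 0), which is lowest at 39.9 in Gfi1cre/+ replicate 2 and highest at 85.0 in Gfi1+/+ replicate 1.

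The other genes of the pathway were counted by role. Of the 18 class I heavy chain genes on the list apart from H2-K1 and H2-D1, 11 were among the genes analysed here and tested, with 5 higher and 6 lower fitted values in Gfi1cre/+, a median log2 difference of -0.032 and 0 with an unadjusted p under 0.05. Those with the most reads, without correction for length, were *Fcgrt*, which encodes the neonatal Fc receptor (4628 ± 262 in Gfi1+/+ and 4734 ± 207 normalized reads in Gfi1cre/+), *H2-T23*, which encodes the Qa-1 ligand of natural killer cell receptors (1265 ± 131 and 1194 ± 107), and *Mr1*, which presents vitamin metabolites to MAIT cells (748 ± 29.3 and 732 ± 31.1). Gfi1+/+ replicate 3, the highest library in 23.1% of all genes, was the highest for 4 of the 11. Among these, and chosen after the values were seen, *H2-Q4* had 137, 152 and 266 normalized reads in Gfi1+/+ and 171, 198 and 139 in Gfi1cre/+. *H2-Q7* had 18.5, 20.9 and 78.1 in Gfi1+/+ and 18.3, 17.8 and 11.3 in Gfi1cre/+, and it was the only one of the 11 whose genotypes did not overlap, lower in Gfi1cre/+ as were 4.07% of all genes. The nearest values, 18.5 and 18.3 in replicate 1 of each genotype, came from 15 and 21 counted reads. They differ by less than 1 read, which is 1.23 normalized reads in Gfi1+/+ replicate 1 and 0.870 in Gfi1cre/+ replicate 1. *H2-Q6* had 16.1, 12.6 and 64.3 in Gfi1+/+ and 12.2, 19.5 and 19.8 in Gfi1cre/+. *H2-Q6* and *H2-Q7* reached 40 normalized reads, the minimum for the test, only in Gfi1+/+ replicate 3, and *H2-T10* only in Gfi1cre/+ replicate 3. Each was thus tested only through the library where it was highest. A minimum mean of 40 left 8 genes of this list, 4 of them with higher fitted values in Gfi1cre/+ and a median log2 difference of 0.00061. Levels of *H2-Q4*, *H2-Q6* and *H2-Q7* are uncertain because 10.5%, 5.99% and 6.87% of the 150-base windows of their longest transcripts occur in other genes, and for *H2-T10* and *H2-T22* the shares were 24.1% and 29.4%.

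All 12 peptide loading and immunoproteasome genes on the list were tested, of which 9 had higher and 3 lower fitted values in Gfi1cre/+, with a median log2 difference of 0.079 and 0 with an unadjusted p under 0.05. The median was 0.026 without Gfi1cre/+ replicate 2 and 0.030 without Gfi1+/+ replicate 3. The chaperones of class I folding had the most reads and hardly varied. *Calr* (calreticulin) had 21646 ± 873 and 23205 ± 645 normalized reads in Gfi1+/+ and Gfi1cre/+, *Pdia3* 12295 ± 563 and 12855 ± 173, and *Canx* (calnexin) 7853 ± 312 and 7980 ± 158. *Calr* was the only one of the 12 whose genotypes did not overlap, higher in Gfi1cre/+ as were 3.45% of all genes (log2 difference 0.10, limma, unadjusted p = 0.167). Gfi1cre/+ replicate 2 was the highest library for 6 of the 12 and for 12.9% of all genes. *Psmb9*, the neighbour of *Tap1*, was chosen after its values were seen and had 38.3, 55.5 and 90.7 in Gfi1+/+ and 72.2, 154 and 58.5 in Gfi1cre/+. As for *Tap1*, its highest library was Gfi1cre/+ replicate 2, at 1.70 times the next. *Psmb8*, another immunoproteasome subunit chosen in the same way, had 60.5, 54.4 and 71.7 in Gfi1+/+ and 59.2, 106 and 59.4 in Gfi1cre/+. *Tap2*, the partner of *Tap1* in the transporter and also named afterwards, had 189, 219 and 232 in Gfi1+/+ and 213, 241 and 232 in Gfi1cre/+, so that the same pool was its highest library but exceeded the next by a factor of only 1.04.

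Of the 11 class II partner genes, 5 were among the genes analysed here and tested, with 1 higher and 4 lower fitted values in Gfi1cre/+, a median log2 difference of -0.091 and 0 with an unadjusted p under 0.05. Those with the most reads were the lysosomal enzymes *Lgmn* (4833 ± 261 and 4947 ± 114 normalized reads), *Ifi30* (1369 ± 187 and 1306 ± 15.5) and *Ctss* (485 ± 13.6 and 456 ± 29.6), which cut or reduce proteins for presentation. The fitted values of *H2-DMa* and *H2-DMb1*, named after their values were seen and the chains of the peptide exchanger of class II, were lower in Gfi1cre/+ while those of *H2-Aa* and *H2-Ab1* were higher, and no value of these 4 genes passed a test.

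Of the 16 regulators on the list, all but *Ciita*, which was not among the genes analysed here, were tested, and 12 had higher and 3 lower fitted values in Gfi1cre/+, with a median log2 difference of 0.058 that came to 0.032 without Gfi1cre/+ replicate 2. An unadjusted p under 0.05 was reached by 1 of the 15, higher in Gfi1cre/+ as were 1.02% of all genes, and by none after adjustment. The count was 0 without Gfi1+/+ replicate 2 or Gfi1cre/+ replicate 2, where 3.78% and 1.49% of all genes had such a p, 2 without Gfi1cre/+ replicate 1 (2.17% of all genes) and 3 without Gfi1+/+ replicate 3 (16.2% of all genes). *Irf1*, a transcription factor of the interferon response, had 358, 343 and 371 normalized reads in Gfi1+/+ and 383, 455 and 409 in Gfi1cre/+ (log2 difference 0.21, limma, unadjusted p = 0.0275, adjusted p = 0.999). The genotypes did not overlap for 2 of the 15 regulators, *Irf1* and the interferon gamma receptor gene *Ifngr1* (878 ± 21.1 and 929 ± 12.9), both higher in Gfi1cre/+ as were 3.45% of all genes. The regulators with the most reads, without correction for length, were the upstream genes *Jak1* with 2921 ± 88.2 and 2990 ± 53.8 normalized reads, *Jak2* with 932 ± 110 and 972 ± 30.5, and *Ifngr2* with 922 ± 10.2 and 957 ± 29.8. *Nlrc5*, the coactivator of class I promoters, was named after its values were seen and had 18.5, 14.7 and 35.9 in Gfi1+/+ and 13.1, 115 and 31.1 in Gfi1cre/+. Its highest library was again Gfi1cre/+ replicate 2, at 3.19 times the next and the only one where it reached the minimum of 40. That library was the highest for 7 of the 15 regulators and for 12.9% of all genes. A minimum mean of 40 left out *Nlrc5*. Of the 14 regulators then tested, 11 had higher fitted values in Gfi1cre/+, with a median log2 difference of 0.056.

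**Figure D4:**
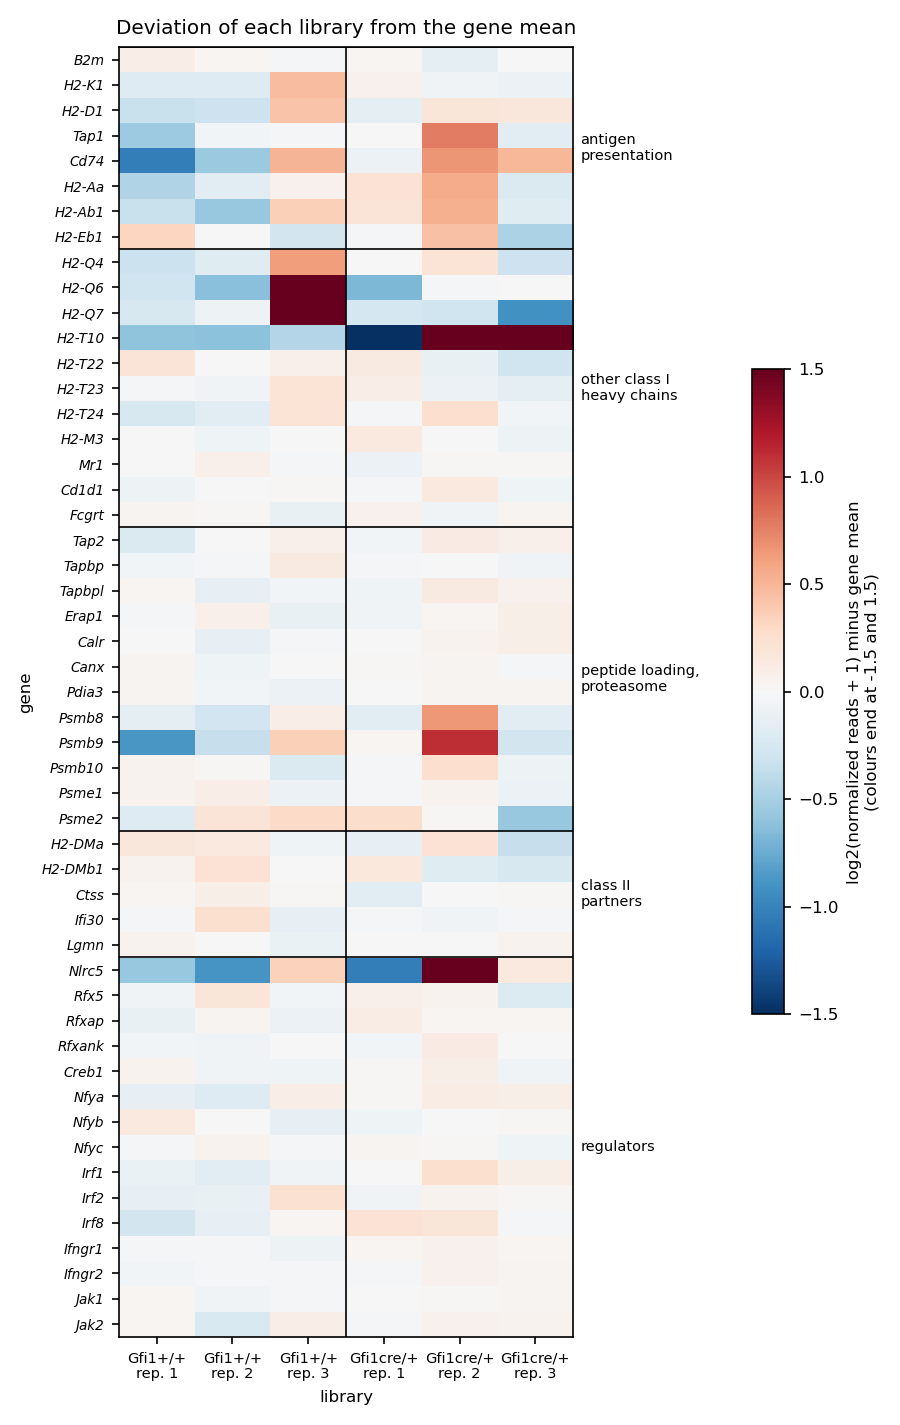
Deviation of log2(normalized reads + 1) from the mean of the gene over 6 libraries (colour, red above and blue below the mean) for the 8 antigen presentation genes and the other genes of the pathway that were tested (rows), by library (columns). Red in Gfi1cre/+ replicate 2 runs through *Tap1*, *Cd74*, *H2-Aa*, *H2-Ab1*, *H2-Eb1*, *Psmb8*, *Psmb9*, *Nlrc5* and *Irf1*, and red in Gfi1+/+ replicate 3 through *H2-K1*, *H2-D1*, *H2-Q4*, *H2-Q6* and *H2-Q7*, while the chaperones *Calr*, *Canx* and *Pdia3* stay near 0.

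Markers of the cells that make class II were set beside these values. All 15 macrophage markers were listed and none had an unadjusted p under 0.05, and their summed level ran from 9249 to 10128 normalized reads in Gfi1+/+ and from 9166 to 9934 in Gfi1cre/+. *Csf1r*, the receptor that macrophages need to survive, had 2496 ± 183 and 2456 ± 124, and *Ptprc*, which encodes CD45, had 83.3 ± 9.25 and 85.9 ± 7.07. The sum, which rests mostly on abundant genes, was highest in Gfi1+/+ replicate 2, where the class II sum was the second lowest. By single genes, Gfi1cre/+ replicate 2 was the highest library for 6 of the 15 macrophage markers and for 12.9% of all genes. The class II sum was also highest in that library. Gfi1+/+ replicate 2 was the highest for 4 of the 15 and for 17.3% of all genes. The median deviations of the 15 from the gene mean were 0.12 in Gfi1cre/+ replicate 2 and 0.019 in Gfi1+/+ replicate 2 on the log2 scale. The genotypes did not overlap for 1 of the 15, *Itgam* (146 ± 6.75 and 168 ± 2.54), higher in Gfi1cre/+ as were 3.45% of all genes. Of 9 dendritic cell markers 2 were among the genes analysed here, *Zbtb46*, also made by endothelial cells, with 244 ± 34.6 and 262 ± 25.5, and *Siglech*, a gene of plasmacytoid dendritic cells and microglia that was under the minimum for the test, with 34.0 ± 5.09 and 28.2 ± 5.22 and its lowest value, 22.2, in Gfi1cre/+ replicate 2. Of 8 T and natural killer cell markers only *Cd4* was, with 107, 148 and 143 in Gfi1+/+ and 83.6, 100 and 114 in Gfi1cre/+ (limma, unadjusted p = 0.0349, adjusted p = 0.999). Of 7 B cell markers only *Ighm*, the heavy chain of IgM, was, and it had 294, 291 and 1240 in Gfi1+/+ and 758, 817 and 578 in Gfi1cre/+. Its libraries were thus ordered like those of *Cd74* in that Gfi1+/+ replicates 1 and 2 were lowest, and Gfi1+/+ replicate 3 was its highest, as for *H2-K1* and *H2-D1*. All 6 endothelial markers had fitted values above 0 in Gfi1cre/+ minus Gfi1+/+, as had 49.9% of all genes, with summed levels of 4447 to 5287 in Gfi1+/+ and 4702 to 5603 in Gfi1cre/+. An unadjusted p under 0.05 was reached by 2 of the 6, both higher in Gfi1cre/+ as were 1.02% of all genes. They were *Pecam1* (limma, unadjusted p = 0.0466, adjusted p = 0.999) and *Tek* (limma, unadjusted p = 0.0277, adjusted p = 0.999). The genotypes did not overlap for *Tek*, higher in Gfi1cre/+ as were 3.45% of all genes. The part of these cells in the levels of the 8 genes was not tested.

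The genes whose values over the 6 libraries were most like those of *B2m*, by Pearson r of log2(normalized reads + 1) among 13921 candidates, were *Hmox2* (r = 0.987), *Prdx1* (0.985), *Pet100* (0.983), *Ccdc124* (0.982) and *Selk* (0.978). For *Cd74* they were *Dgcr2* (0.994), *Slc11a2* (0.994), *Ahdc1* (0.993), *Arap3* (0.992) and *Tln1* (0.991). None of these is one of the 8 genes or on the lists of the pathway. With 6 points, r above 0.9 was common, in 174 candidates for *B2m* and 560 for *Cd74*.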

How the data were processed

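The authors prepared TruSeq libraries from cochlear duct RNA, sequenced paired ends, mapped them by TopHat to mm10, counted unique alignments per gene by HTSeq and required a coverage of 40 reads. Versions, annotation and strand setting are not given in the sources used here. The deposited file holds 1 signal for each gene in each library. The methods name quantile normalization, yet quantiles differed between libraries. Divided by 1 step per library, 100% of its values came out whole (tolerance 0.02). Each was therefore taken as counted reads over 1 size factor (0.810 to 1.15) and called normalized reads.

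Genotypes were compared by limma 3.58.1 (R 4.3.3, lmFit, eBayes with a trend) on log2(value + 1), two-sided, which understates changes of low genes. The 14455 genes that reached 40 normalized reads in any library were tested, and the other 410 were left out. edgeR 4.0.16 and DESeq2 1.42.0 on recovered reads were alternatives. The steps were tested on simulated data. Exon lengths came from GENCODE M21 (GRCm38). The genes named are the 8, the 3 genes of each pathway list with the most reads and those of these lists with an unadjusted p under 0.05. Other pathway genes and all cell markers were named after their values were seen. A gene of the regulator list is not reported here. The genes and lists were chosen with earlier results of these data known. P-values measure the spread between these libraries, which are 1 mouse each in Gfi1+/+ and pools in Gfi1cre/+.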

Additional observations from a re-analysis of the deposited data

How the results depend on the processing

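With 16 alternatives (pseudocounts of 0.1 and 10, other minima, no trend, median centring, quantile normalization, the replicate block, each library left out, edgeR and DESeq2), 0 of the 8 genes passed an adjusted p under 0.05. Over all genes, 4 passed by limma and by edgeR, 10 by DESeq2 and between 0 and 48 with 1 library left out, the 48 without Gfi1+/+ replicate 3. The number of the 8 genes with an unadjusted p under 0.05 was 0, and 1 by DESeq2 (2.59% of all genes), 2 with the replicate block and between 0 and 3 with 1 library left out, the 3 without Gfi1+/+ replicate 3 (16.2% of all genes). The direction held in 123 of 127 single-gene values. It reversed for *H2-K1* to 0.17 without Gfi1+/+ replicate 3, in a range of -0.16 to 0.17, and for *H2-Eb1* to 0.039 with quantile normalization, 0.12 without Gfi1+/+ replicate 1 and 0.19 without Gfi1cre/+ replicate 3, in a range of -0.27 to 0.19. The cause was not tested. The ratio of class I to class II, 63.8, was 31.7 without *B2m* and *Cd74*, 43.1 as a ratio of medians over genes, and 59.6 to 68.6 with 1 library left out.

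The labels do not say whether libraries of the same replicate number belong together, and the main fit used no block. Deviations from the genotype mean had r of -0.0944, 0.107 and -0.0326 between libraries of the same number over 14455 genes, and not every library correlated best with its own number. With the replicate block, 4 of all genes passed an adjusted p under 0.05, and limma gave *Tap1* an unadjusted p of 0.0399 and *Cd74* one of 0.0205 (adjusted p = 0.999 for both), where 3.2% of all genes had one under 0.05. Depth limits the class II chains, whose counts ran from 20 to 83 reads per library.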
